A study of Homo sapiens with 4 samples.

Results

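The ZNF genes of human chromosome 19 were taken as every row of the count table whose name was ZNF followed by a number and at most 1 further letter and whose first listed exon lay on chromosome 19. There were 263 such genes among the 59652 genes used, and 296 genes with a name of this form lay on other chromosomes. Of the 263, 246 were protein-coding in GENCODE release 44 and 16 were pseudogenes, and ZNF56 was annotated as a long noncoding RNA. The study compared high with low glucose in Huh7 and PLC, 2 lines of human hepatocellular carcinoma cells that the labels give as wild type. Each line was kept for 48 h in glucose-free DMEM with 10% FBS to which 5 mM (low) or 25 mM (high) glucose was added. There was 1 library for each line and glucose level, 4 in all, so the samples were low-glucose Huh7, high-glucose Huh7, low-glucose PLC and high-glucose PLC cells. Total RNA was depleted of ribosomal RNA and sequenced from directional libraries. Reads are given below in that order of the 4 libraries, and there are no replicate cultures.

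Most ZNF genes on this chromosome encode proteins in which an array of zinc fingers reads DNA, and many also carry a KRAB domain. KRAB zinc finger proteins recruit the corepressor TRIM28, which brings the histone methyltransferase SETDB1, HP1 proteins and deacetylases to the bound site, often in transposable elements. The genes arose by tandem duplication and stand in clusters of close relatives, and the chromatin over such clusters commonly carries the repressive mark H3K9me3.

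The promoters of some of the genes in which the lines differed widely, or that stood out among silent neighbours, are shown first. They are the bases before the RefSeq start on GRCh38.p14, trimmed where an exon of the same gene in the count table began earlier. Capitals mark the letters CCAAT and CCGGAAG on either strand. ZNF208, ZNF492 and ZNF730 were silent in Huh7 and expressed in PLC cells, and ZNF257 was a neighbour expressed in both, whose printed stretch is shortened and holds no CCAAT. ZNF93 and ZNF439 were far lower in PLC cells.
ZNF208 (chr19:22010950-22011193, minus strand): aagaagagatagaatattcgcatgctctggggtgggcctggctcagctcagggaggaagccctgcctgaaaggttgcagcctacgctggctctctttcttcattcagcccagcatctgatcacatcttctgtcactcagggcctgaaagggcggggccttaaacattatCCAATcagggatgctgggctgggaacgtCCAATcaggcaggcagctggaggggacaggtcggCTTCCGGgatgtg
ZNF257 (chr19:22052234-22052429, plus strand): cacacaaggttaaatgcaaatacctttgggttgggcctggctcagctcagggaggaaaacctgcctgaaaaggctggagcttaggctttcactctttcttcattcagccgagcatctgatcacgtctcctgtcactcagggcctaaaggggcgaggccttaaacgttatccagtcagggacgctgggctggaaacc
ZNF492 (chr19:22634074-22634323, plus strand): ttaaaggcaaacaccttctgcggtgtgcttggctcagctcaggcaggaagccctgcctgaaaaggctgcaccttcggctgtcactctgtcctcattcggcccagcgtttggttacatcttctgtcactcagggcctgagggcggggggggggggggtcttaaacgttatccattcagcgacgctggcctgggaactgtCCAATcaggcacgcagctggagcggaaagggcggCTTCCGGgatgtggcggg
ZNF730 (chr19:23116775-23117024, plus strand): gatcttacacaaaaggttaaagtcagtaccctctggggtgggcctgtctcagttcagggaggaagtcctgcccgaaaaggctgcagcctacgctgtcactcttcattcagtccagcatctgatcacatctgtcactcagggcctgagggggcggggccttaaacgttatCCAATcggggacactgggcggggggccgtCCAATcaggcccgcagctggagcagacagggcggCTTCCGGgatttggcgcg
ZNF93 (chr19:19900696-19900912, plus strand): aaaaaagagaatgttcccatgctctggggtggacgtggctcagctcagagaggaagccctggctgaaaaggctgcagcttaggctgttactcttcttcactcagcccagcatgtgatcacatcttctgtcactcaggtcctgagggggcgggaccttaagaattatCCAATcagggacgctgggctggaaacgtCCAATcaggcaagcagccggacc
ZNF439 (chr19:11848476-11848725, plus strand): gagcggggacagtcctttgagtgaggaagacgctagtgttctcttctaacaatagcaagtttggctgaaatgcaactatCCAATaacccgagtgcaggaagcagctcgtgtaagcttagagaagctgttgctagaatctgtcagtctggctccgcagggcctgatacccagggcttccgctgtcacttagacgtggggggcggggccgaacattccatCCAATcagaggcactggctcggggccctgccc
The pair ZNF829 and ZNF568 was silent in Huh7 cells and expressed in PLC cells, and their outermost starts in the count table lay head to head with 37 bases between them at chr19:36916292-36916328.
ZNF829 to ZNF568 (chr19:36916292-36916328, plus strand): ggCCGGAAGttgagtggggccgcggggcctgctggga

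RefSeq promoters, taken as 250 bases before to 50 bases after the start, were matched for 216 of the 263 genes. In cluster 4 below, 29 of 29 matched promoters held CCAAT on 1 strand or the other, as did 22 of 24 in cluster 3, against 35.8% of 27305 RefSeq promoters of the same 300 bases. The share was lower in cluster 6 (6 of 25), cluster 8 (5 of 20) and cluster 9 (9 of 32). CCGGAAG stood in 21 of 29 promoters of cluster 4, 20 of 32 of cluster 9 and 33 of 54 of cluster 10, against 10.7% of all promoters. In cluster 3 it stood in 2 of 24. The 2 strings were chosen after the sequences were seen, matches of one cannot share bases with the other, and a match is a description of the window, not a bound site. Promoters of cluster 4 also held fewer CG dinucleotides, with a median of 10 a window against 20 over all matched ZNF genes of the chromosome. Over all RefSeq promoters the median was 14, with quartiles of 3 and 28, so 10 lay within their middle range. Within cluster 4 the median was 10 for the 24 promoters of genes expressed in Huh7 cells and 10 for the 5 of genes silent there.

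The libraries held 21376239, 30085303, 30279716 and 16049686 counted reads. With the library totals as scale, the median log2 ratio of high to low glucose over all genes with at least 20 reads was 0.04 in Huh7 and 0.08 in PLC cells, and with TMM scaling it was 0.00 and -0.03. The hepatocyte markers ALB and APOB had 147932 to 210431 and 359665 to 449567 reads in Huh7 cells. In PLC cells they had 3980 to 5449 and 54882 to 98682 reads, and all 10 hepatocyte markers passed the edgeR test of the lines as lower in PLC cells. Of the defining markers of other cells, CD3E was at 0 reads in all 4 libraries, PTPRC had 5, 4, 5 and 0 reads, VWF had 0, 0, 2 and 0, and COL1A2 had 63, 126, 0 and 0. The summed level of the 3 leukocyte markers was between 0 and 0.363 CPM, counts scaled to the library total. The 3 fibroblast markers summed to 0.498 to 4.72 CPM and the 3 endothelial markers to 0.958 to 19.7 CPM, both highest in Huh7 cells, where PECAM1 held most of the endothelial sum. Their part in the differences between the lines was not tested.

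A gene was called silent in a line with 3 or fewer reads in each of its 2 libraries, expressed with at least 20 reads in the 2 together, and low otherwise. The floor of 3 reads stood for 0.140, 0.0997, 0.0991 and 0.187 CPM, so a silent gene was not detectable above that level, and it was not shown to be absent. Most of the ZNF genes were expressed in each line, 220 (83.7%) in Huh7 and 230 (87.5%) in PLC cells, and 210 were expressed in both. Over all protein-coding genes the shares expressed were 67.5% and 66.6%. Silent genes numbered 35 in Huh7 (13.3%) and 15 in PLC cells (5.70%), and 9 were silent in both. The shares of silent genes were 18.6% and 15.5% among the ZNF genes of other chromosomes and 32.6% and 27.0% among the other 1225 protein-coding genes of chromosome 19. These shares are descriptions with no test. The whole group held little of each library, 0.414%, 0.421%, 0.433% and 0.316% of the reads. In bulk RNA, fewer cells with a transcript and less of it per cell cannot be told apart.

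By position, a new cluster was started where the next gene began more than 1 Mb on, which gave 10 clusters with 254 of the genes and 9 isolated genes. On hg38, the build named in the processing notes, cluster 1 (5 genes) ran from ZNF554 to ZNF77, cluster 2 (16) from ZNF557 to ZNF846 and cluster 3 (28) from ZNF653 to ZNF791. Cluster 4 (42) ran from ZNF101 to ZNF254, the last before the centromere. On the long arm, cluster 5 (6) ran from ZNF807P to ZNF792, cluster 6 (27) from ZNF565 to ZNF573 and cluster 7 (3) from ZNF546 to ZNF780A. Cluster 8 (25) ran from ZNF575 to ZNF296, cluster 9 (42) from ZNF175 to ZNF331 and cluster 10 (60) from ZNF628 to ZNF446. The silent genes were spread unevenly over them. Cluster 4 held 14 of the 35 genes silent in Huh7 cells and 1 of the 15 silent in PLC cells. Cluster 6 held 5 and 0, and cluster 9 held 5 and 3. Cluster 3 was the reverse, with 1 gene silent in Huh7 and 4 in PLC cells. Clusters 7 and 8 had no silent gene in either line, and cluster 10 had 2 of 60 in each.

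**Figure D1:**
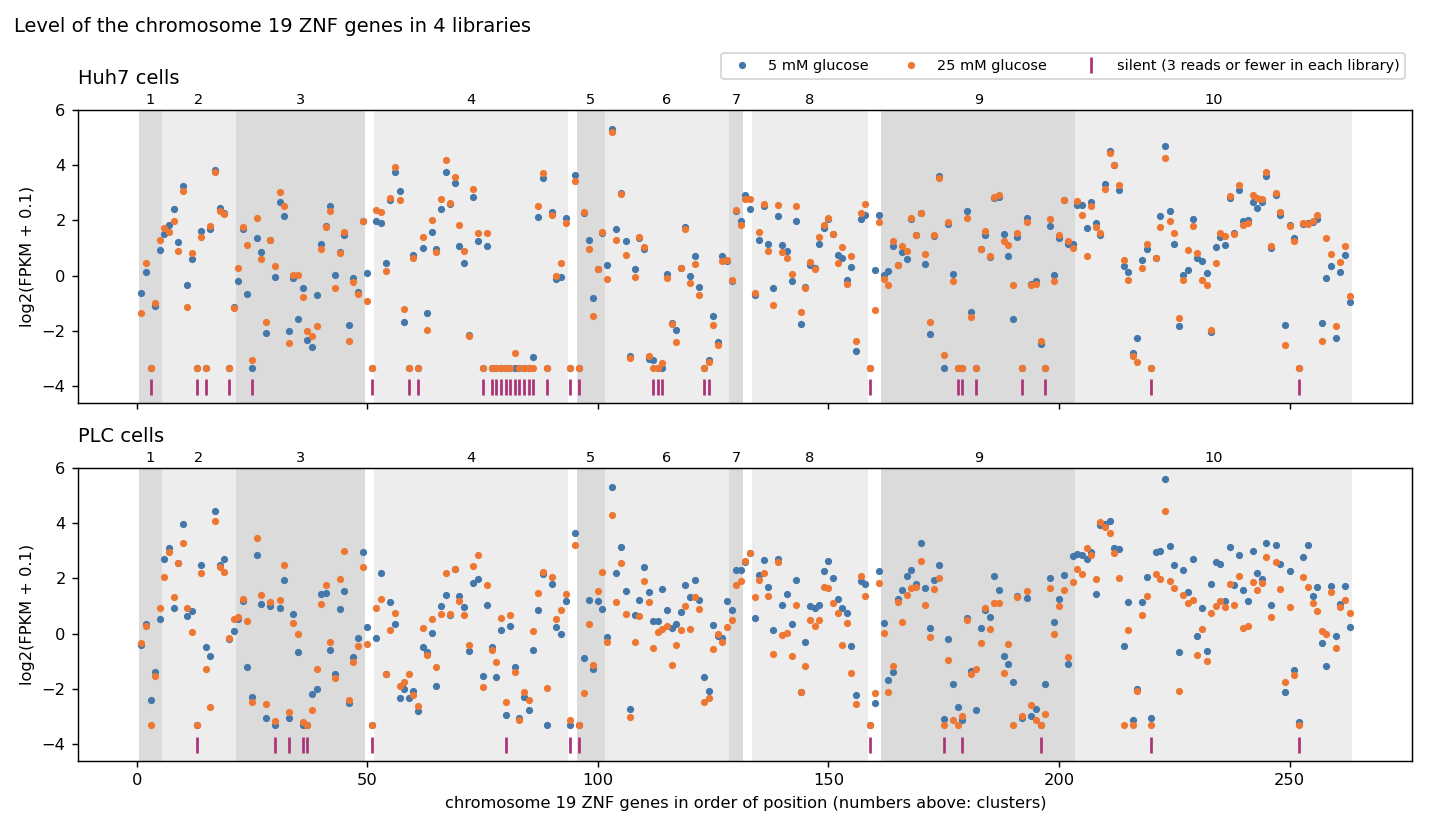
Level of each of the 263 ZNF genes, as log2(FPKM + 0.1), against its order along chromosome 19, in Huh7 (upper) and PLC cells (lower) at 5 mM (blue) and 25 mM glucose (orange). Shaded bands are the 10 clusters and purple ticks mark silent genes, of which Huh7 cells had 35, with 14 in cluster 4, and PLC cells 15.

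The longest silent stretch lay in cluster 4 (chr19:19668796-24129968) in Huh7 cells. From ZNF676 to ZNF730 (chr19:22179089-23147221), 10 consecutive ZNF genes were silent, and together they had 2 reads in each Huh7 library against 446 and 311 in the PLC libraries. The 10 were ZNF676, ZNF729, ZNF98, ZNF209P, ZNF492, ZNF849P, ZNF99, ZNF723, ZNF728 and ZNF730. In PLC cells 6 of them were expressed, 3 were low and ZNF209P, a pseudogene, was silent. ZNF492 had 0, 0, 142 and 102 reads, ZNF98 had 0, 0, 99 and 72, and ZNF676 had 0, 0, 88 and 43. Both Huh7 libraries were at 0 and both PLC libraries well above it for each of the 3. Their choice as silent in Huh7 and expressed in PLC cells largely fixed this. Against a floor of 3 reads in each Huh7 library, ZNF492 was at least 46.0-fold higher in PLC cells, ZNF98 at least 32.3-fold and ZNF676 at least 23.3-fold, with edgeR adjusted p of 4.3e-06, 1.5e-05 and 4.8e-05. With DESeq2 the adjusted p of ZNF492 was 0.056. ZNF730 had 2, 0, 56 and 50 reads, a ratio of 58.9 with a counting interval of 15.9 to 492. ZNF729 had 0, 0, 28 and 24 reads.

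The stretch had sharp edges. ZNF208, 2 genes before it, was also silent in Huh7 cells, with 0, 0, 87 and 31 reads. Between ZNF208 and ZNF676 lay ZNF257, with 222, 437, 303 and 273 reads, expressed in every library. Its edgeR log2 difference of PLC from Huh7 cells was 0.09 ± 0.30 (SE, adjusted p = 0.83). Just past the other end stood ZNF724 with 302, 570, 170 and 144 reads and ZNF91, which represses SVA retrotransposons, with 2512, 4011, 1342 and 763. Both were expressed in both lines and lower in PLC cells (adjusted p = 0.0070 and 0.00021, edgeR). A further 3 genes of the cluster were silent in Huh7 cells, ZNF90 with 0, 0, 18 and 26 reads and the pseudogenes ZNF826P and ZNF725P. Of the 14 genes silent in Huh7 cells, 8 were expressed in PLC cells. These genes are close paralogs, and how reads that match several of them were counted is not given in the sources used here, so single values are uncertain to that extent.

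Other genes of cluster 4 went the opposite way. ZNF93, which represses L1 elements, had 987, 1101, 17 and 15 reads, or 8.28, 6.56, 0.101 and 0.167 FPKM, and its log2 difference of PLC from Huh7 cells was -5.84 ± 0.39 (SE, edgeR adjusted p = 9.2e-08). ZNF253 had 1034, 1667, 130 and 91 reads and differed by -3.39 ± 0.29. ZNF714 had 2830, 5370, 750 and 712 reads and differed by -2.21 ± 0.24. In all 3 the Huh7 and PLC libraries did not overlap in CPM, but they were named with these values known, so this is no further evidence. ZNF43 was the reverse, with 416, 728, 1007 and 969 reads and a difference of 1.05 ± 0.26 (adjusted p = 0.0054). Among the 36 genes of the cluster that were tested, 10 passed as higher and 16 as lower in PLC cells. Over all genes tested the shares were 21.1% and 21.8%.

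In cluster 6 (chr19:36182276-37817300) the difference lay in 1 direction. All 27 genes were expressed in PLC cells, against 19 in Huh7 cells. ZNF345, ZNF829 and ZNF568 were consecutive and silent in Huh7 cells, and ZNF790 just before them was low, with 2, 4, 323 and 130 reads. ZNF568 had 0, 3, 855 and 155 reads, a ratio of PLC to Huh7 cells of 374 with a counting interval of 128 to 1816 (edgeR adjusted p = 7.5e-07). ZNF829, its head-to-head partner, had 0, 0, 297 and 117 reads and was at least 71.2-fold higher in PLC cells (adjusted p = 1.0e-06). ZNF345 had 2, 0, 180 and 46 reads, a ratio of 126 with a counting interval of 34.3 to 1043. The PLC libraries were far above the Huh7 libraries in each of these, as their choice as silent in 1 line and expressed in the other implies. Downstream, ZNF793 with 0, 0, 87 and 15 reads and ZNF540 with 2, 2, 18 and 7 were also silent in Huh7 cells. ZNF420, the gene after ZNF568, had 82, 103, 213 and 73 reads and did not pass the test (adjusted p = 0.19). Of the 26 genes tested in the cluster, 13 passed as higher in PLC cells and 0 as lower, and the median log2 difference was 1.05. The shares over all genes tested were 21.1% higher and 21.8% lower.

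**Figure D2:**
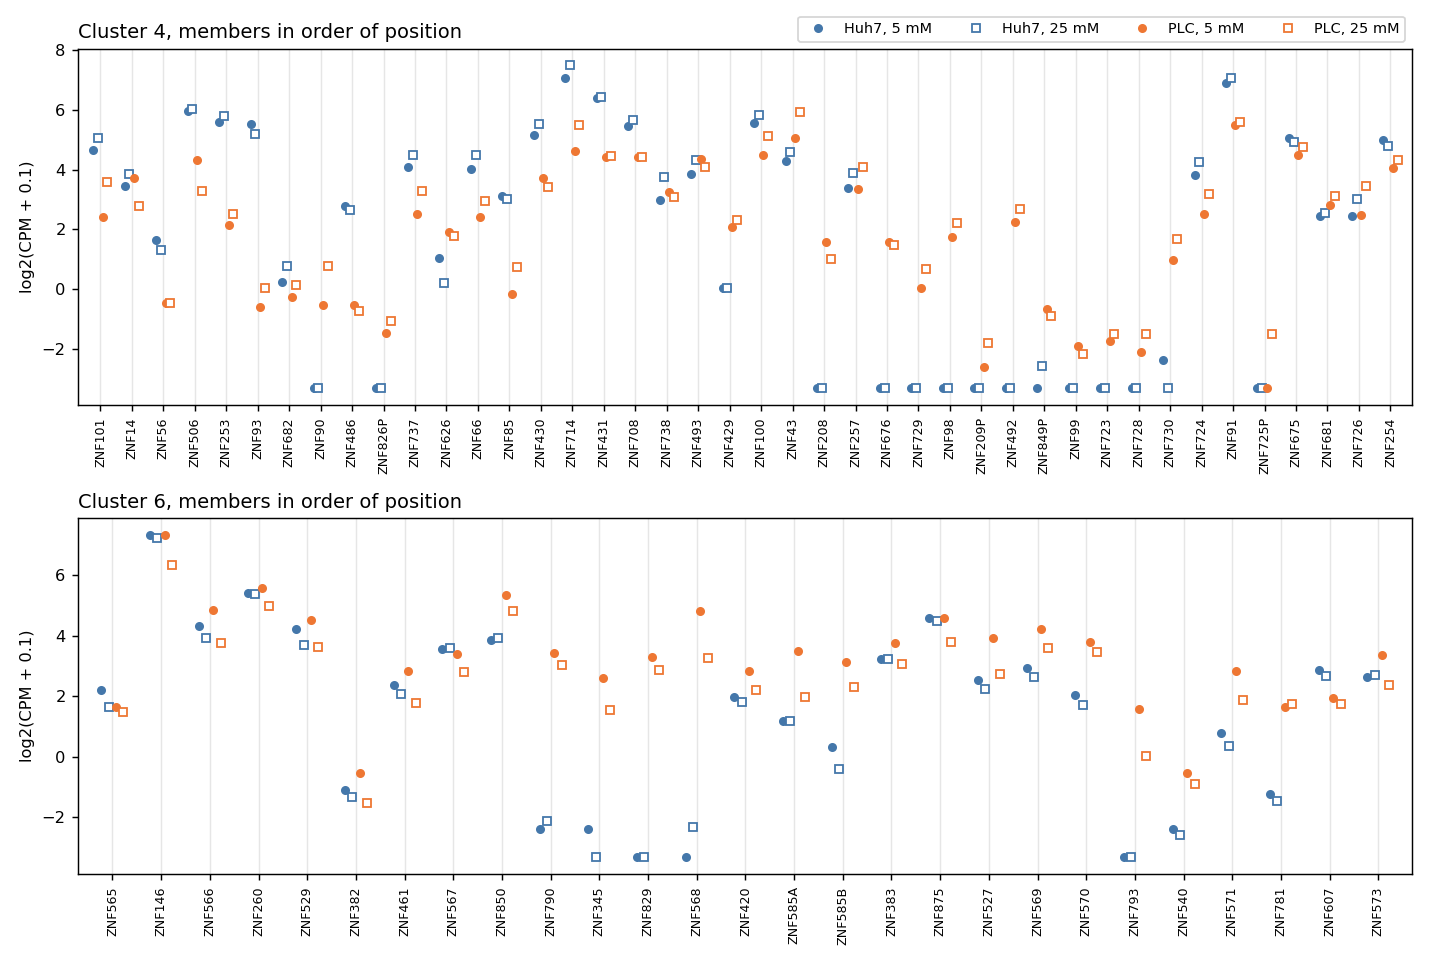
Level in each library, as log2(CPM + 0.1), for the 42 genes of cluster 4 (upper) and the 27 of cluster 6 (lower) in order of position, with Huh7 cells in blue and PLC cells in orange, filled circles at 5 mM and open squares at 25 mM glucose. Points at the bottom have 0 reads; in cluster 4 the Huh7 points fall to or near it from ZNF676 to ZNF730 and in cluster 6 from ZNF790 to ZNF568, while the PLC points there stay higher.

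Silence in PLC cells beside expression in Huh7 cells was seen in 4 genes. ZNF439 had 97, 183, 0 and 1 reads, ZNF844 had 88, 95, 0 and 1, the pseudogene ZNF788P had 12, 26, 0 and 0, and ZNF665 had 13, 22, 0 and 0. All 4 passed the edgeR test (adjusted p between 6.4e-06 and 0.0078), and with DESeq2 ZNF788P and ZNF665 did not (adjusted p = 0.094 and 0.11). Their choice as silent in PLC and expressed in Huh7 cells largely fixed the direction and size of the difference, so the test is no further evidence. ZNF844 and ZNF788P were neighbours in cluster 3, where ZNF439 also lies, and ZNF665 lies in cluster 9. For ZNF439 the ratio of Huh7 to PLC cells was 252 with a counting interval of 44.9 to 9992. In the other direction 16 genes were silent in Huh7 and expressed in PLC cells. Outside clusters 4 and 6 these were ZNF560 (0, 0, 55 and 15 reads) and ZNF812P (0, 0, 55 and 30) in cluster 2 and ZNF677 (0, 0, 52 and 5) in cluster 9. ZNF677 did not pass the filter of the edgeR fit. Of the 246 protein-coding ZNF genes, 14 (5.69%) were silent in Huh7 and expressed in PLC cells and 3 (1.22%) the reverse. Over all 19917 protein-coding genes these shares were 2.55% and 2.77%.

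The 9 genes silent in both lines were ZNF177, ZNF861P, ZNF209P, ZNF536, ZNF807P, ZNF541, ZNF578, ZNF835 and ZNF135, of which 6 are protein-coding. A separate gene entry, ZNF559-ZNF177, was expressed in PLC cells, and whether reads of ZNF177 were counted there or lost is not known. ZNF536, a repressor of neuronal differentiation, had 0, 0, 0 and 2 reads. Of the 16 pseudogenes, 10 were silent in Huh7 and 4 in PLC cells. At the other end, 4 genes had at least 10 FPKM in every library. ZNF146, made of zinc fingers without a KRAB domain, had 39.4, 36.8, 39.1 and 19.6 FPKM, and ZNF460 had 25.7, 19.02, 48.0 and 21.3. ZNF787 had 22.9, 21.4, 16.7 and 12.3 FPKM, and ZNF121 had 14.1, 13.2, 21.4 and 16.6. The median level over all 263 genes was 1.63 FPKM in each line.

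Across the chromosome, edgeR compared PLC with Huh7 cells in a model with line and glucose and 1 residual degree of freedom. Its spread was what the line and glucose terms left over, moderated by the spread of all genes tested. Of 238 genes tested, 48 (20.2%) passed an adjusted p of 0.05 as higher in PLC cells and 54 (22.7%) as lower. Over all 23217 genes tested the shares were 21.1% and 21.8%, so the group as a whole was called about as often as any other gene. The direction differed among clusters. In cluster 9, 3 of 36 tested genes passed as higher and 16 as lower in PLC cells, with a median log2 difference of -0.66. In cluster 2, 7 of 15 passed as higher and 2 as lower, and in cluster 8, 1 of 24 passed in each direction. Cluster 10 was mixed, with 10 of 57 higher and 11 lower. The libraries of a line are its cultures at 2 glucose levels and not replicate cultures, so these p-values do not measure a spread between replicate cultures. The spread they use is how far the line difference varied between the glucose levels, moderated over all genes.

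Among the genes lower in PLC cells, ZNF347 had 152, 194, 14 and 2 reads (log2 difference -4.45 ± 0.54), ZNF415 had 57, 79, 3 and 4 (-4.01 ± 0.69) and ZNF302 had 511, 727, 68 and 10 (-4.12 ± 0.45). ZNF347 and ZNF415 lie near ZNF665 in cluster 9. In the same cluster ZNF649, a KRAB repressor, had 186, 301, 37 and 24 reads (-2.78 ± 0.39), ZNF577 had 166, 157, 48 and 16 (-2.32 ± 0.42) and ZNF808, needed for pancreas development, had 527, 619, 208 and 104 (-1.75 ± 0.30). Each of these had both PLC libraries below both Huh7 libraries in CPM. For ZNF347, ZNF415 and ZNF302 this follows from their choice by line difference and is no further evidence. ZNF331, at the end of cluster 9, was higher in PLC cells, with 392, 506, 1851 and 497 reads (1.32 ± 0.29, adjusted p = 0.0026). ZNF671, ZNF154 and ZNF582, genes often methylated in tumours, lie in cluster 10 and were lower in PLC cells by edgeR, with log2 differences of -1.26 ± 0.36, -1.04 ± 0.36 and -2.42 ± 0.86. All 3 lost the call without a glucose term, ZNF671 and ZNF154 also with DESeq2 (adjusted p = 0.055 and 0.11), and ZNF582 with a mean of at least 10 counts (0.064, edgeR). ZNF444 and ZNF787, of the same cluster and among the 8 highest genes by FPKM, had log2 differences of -1.01 ± 0.23 and -0.62 ± 0.24. The call of ZNF444 held in every alternative, and that of ZNF787 was lost in 4 of 5, with adjusted p between 0.050 and 0.11 there. The remaining genes of the 8, ZNF146, ZNF460, ZNF121, ZNF581, ZNF507 and ZNF317, did not pass. ZNF350, which acts with BRCA1, ZNF304 and ZNF274, which brings SETDB1 to ZNF genes, did not pass either. ZNF382 had 8, 9, 18 and 4 reads and was not tested.

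**Figure D3:**
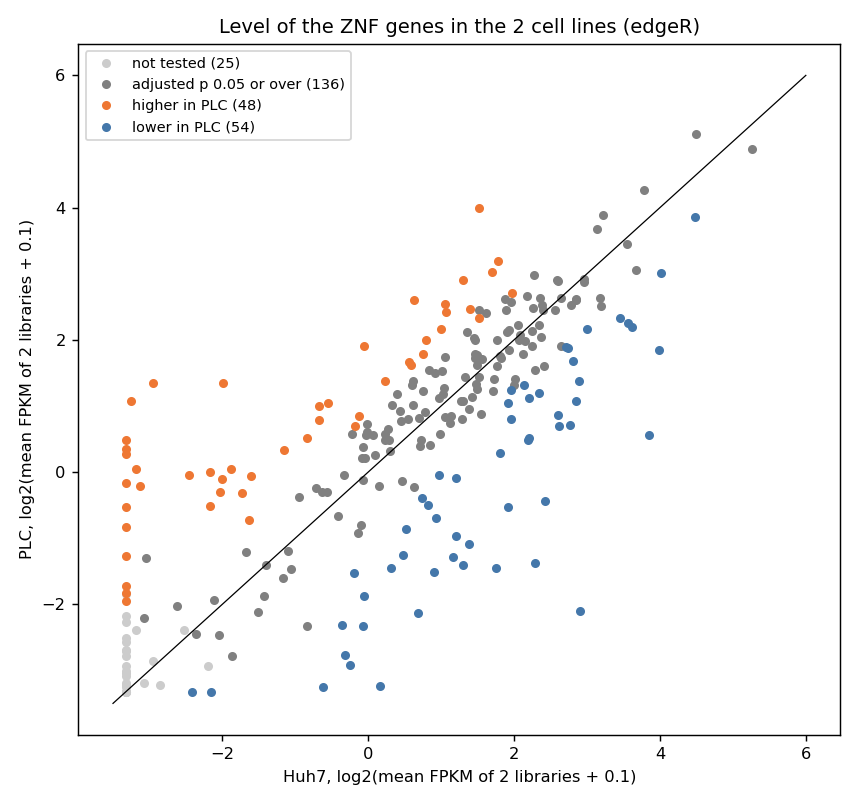
Mean level of each ZNF gene in PLC against Huh7 cells, as log2(mean FPKM of the 2 libraries + 0.1), with the line of equal level. Orange points passed the edgeR test as higher in PLC cells (48), blue points as lower (54), dark grey points were tested without passing and light grey points were not tested; the points along the left edge are genes near 0 in Huh7 cells, such as ZNF829 and ZNF492.

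High glucose against low glucose was tested in the same fit as the change shared by both lines. Of the 238 ZNF genes tested by edgeR, 0 had an adjusted p under 0.05, against 0.379% of all 23217 genes. At an unadjusted p under 0.05 there were 25, and DESeq2 gave 0 at the adjusted and 9 at the unadjusted threshold. Of the 25, 21 (8.82%) were lower and 4 (1.68%) higher in high glucose, where the shares over all genes were 4.36% and 4.14%. The smallest adjusted p was 0.18, for ZNF460, with 2203, 2292, 5827 and 1368 reads and a log2 fold change of -0.89 ± 0.25. ZNF550 followed with 214, 197, 904 and 156 reads and -1.20 ± 0.34 (adjusted p = 0.19). In both genes the high-glucose library was below the low-glucose library of its line in FPKM, by more in PLC than in Huh7 cells. Of the 21 lower genes, 20 lay on the long arm of the chromosome, which held 156 of the 238 genes tested. Among the other protein-coding genes tested there, 23 of 395 were lower and 19 higher at the same unadjusted p. Of the ZNF genes on other chromosomes, 21 of 243 tested were lower and 6 higher, so the lean to lower values was not particular to chromosome 19. Whether the change differed between the lines could not be tested, since no degree of freedom was left.

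The ratio of high to low glucose was then taken line by line for genes with at least 20 reads in the line, as (FPKM + 0.1) in high over (FPKM + 0.1) in low glucose, with an exact 95% interval of the read ratio that covers counting error only. With 1 library a condition, a ratio compares those libraries. In Huh7 cells the ZNF genes hardly moved as a group. The median log2 ratio over 220 genes was 0.02, 7 genes (3.18%) were over 1.5 and 13 (5.91%) under 0.67, where 11.1% and 9.74% of all 21606 genes with enough reads were. Clusters stayed near 0, from a median of -0.19 in cluster 6 to 0.24 in cluster 4. The 7 over 1.5 were ZNF887P, ZNF823, ZNF878, ZNF738, ZNF321P, ZNF17 and ZNF837.

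In PLC cells the same ratio was lower for most ZNF genes. It was below 1 for 165 of 230, with a median log2 ratio of -0.37, against 0.08 over all genes, -0.06 for ZNF genes of other chromosomes and 0.16 for the other protein-coding genes of chromosome 19. There were 81 genes (35.2%) under 0.67 and 21 (9.13%) over 1.5, where 14.7% and 21.6% of all 20716 genes with enough reads were. Of the 235 ZNF genes of other chromosomes with enough reads, 58 were under 0.67 and 23 over 1.5. Part of this pattern was thus seen in ZNF genes elsewhere. For the chromosome 19 genes, the interval left out 1 for all 81 and for 19 of the 21. It rests on the same reads as the ratio that chose them and covers counting error only. As a share of the library, the reads of the whole group fell from 0.433% to 0.316%. With TMM scaling 98 were under 0.67 and 15 over 1.5. The hepatocyte markers moved between the same PLC libraries, with a summed level of 5279 CPM in low and 8467 CPM in high glucose and a median log2 ratio of 0.98 over the 9 expressed, 5 of them over 1.5 and 1 under 0.67. In Huh7 cells their median was 0.11, and their part in the ZNF ratios was not tested.

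The lower ratios in PLC cells lay mainly on the long arm. This grouping was chosen after the values were seen and has no test. On the long arm 73 of 153 genes were under 0.67 and 4 over 1.5, with a median log2 ratio of -0.54. On the short arm, from ZNF554 to ZNF254, 8 of 77 were under 0.67 and 17 over 1.5, with a median of 0.10. The protein-coding genes with no zinc finger name had medians of 0.16 on each arm (387 and 380 genes), and in Huh7 cells the ZNF genes of the long and short arms had 0.01 and 0.07. By cluster, the median in PLC cells was 0.02, -0.28, 0.26 and 0.28 in clusters 1 to 4. It was 0.14, -0.63, -0.39, -0.57, -0.43 and -0.67 in clusters 5 to 10. The 5 genes of cluster 5 with enough reads were thus the exception on the long arm, and cluster 2 the lowest of the short arm. In cluster 6, 26 of 27 genes had a ratio below 1, and in cluster 10, 50 of 57. Protein-coding neighbours with no zinc finger name had a median of 0.18 in the interval of cluster 8 (20 genes) and -0.23 in that of cluster 10 (15 genes). In the interval of cluster 6 the only other coding genes with enough reads were ZFP14, ZFP30 and ZFP82, zinc finger genes under other names, with a median of -0.44.

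**Figure D4:**
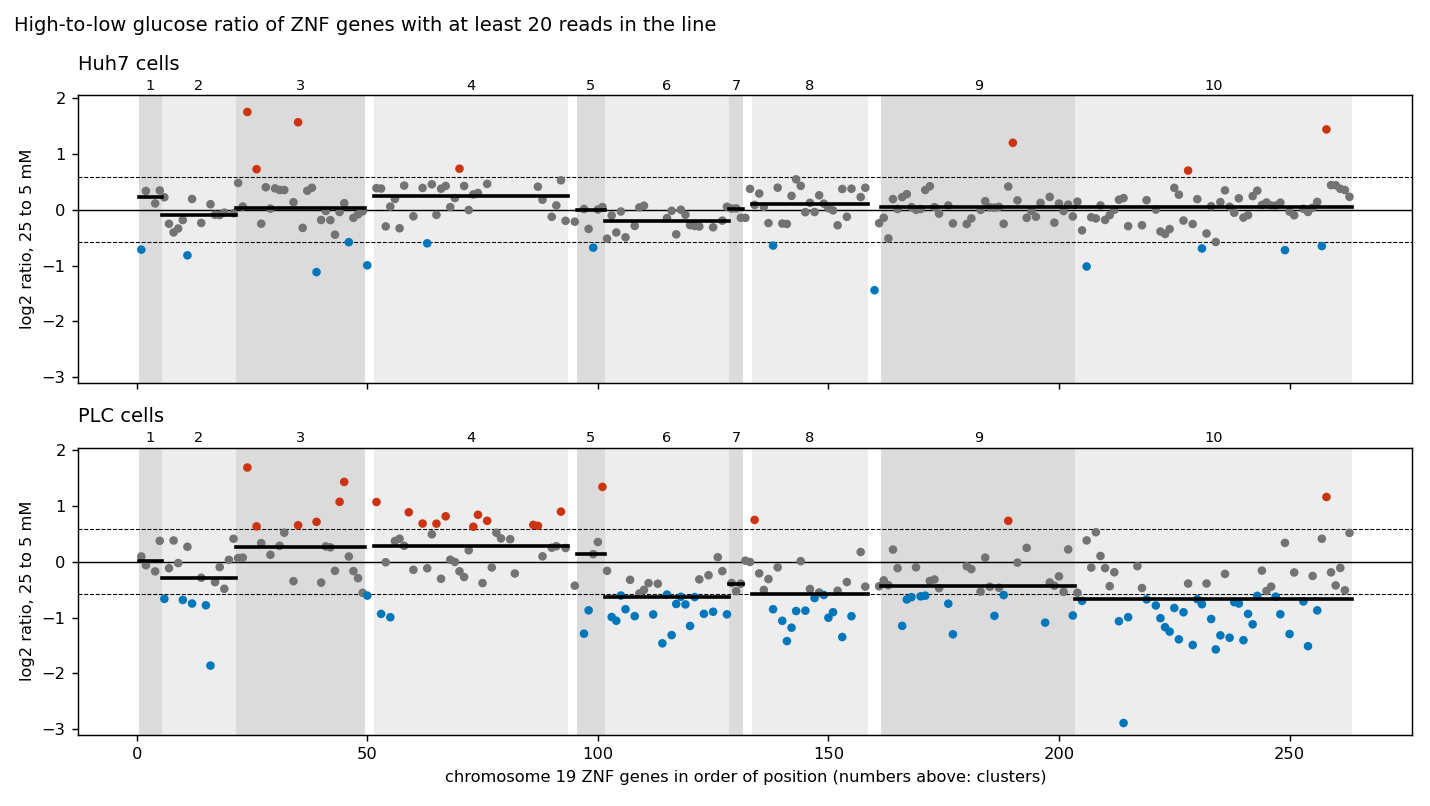
Log2 ratio of high (25 mM) to low (5 mM) glucose for ZNF genes with at least 20 reads in the line, by order along the chromosome, in Huh7 (upper, 220 genes) and PLC cells (lower, 230 genes). Dashed lines are ratios of 1.5 and 0.67, red and blue points lie past them, and black bars are cluster medians, which in PLC cells go from 0.28 in cluster 4 to -0.67 in cluster 10.

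Within cluster 10, ZNF582 had 65 reads in low-glucose and 0 in high-glucose PLC cells, while in Huh7 cells it had 85 and 140. The interval of its PLC read ratio, which has no pseudocount, ended at 0.110. ZNF274 had 2268 and 413 reads in PLC cells, a ratio of 0.351 (0.309 to 0.382), and a ratio of 0.974 in Huh7 cells. ZNF550 and ZNF749 had 0.337 and 0.356 in PLC and 0.671 and 0.838 in Huh7 cells. In cluster 8, ZNF155 had 275 and 51 reads in PLC cells, a ratio of 0.374, and in cluster 2, ZNF426 had 108 and 7, a ratio of 0.276. All of these were lower in high glucose in PLC cells by more than their counting intervals, and each Huh7 ratio was nearer to 1. Except for ZNF274, they were named for the lowest mean log2 ratios of these same libraries, so their intervals are no further evidence. In cluster 6, ZNF568 fell from 855 to 155 reads in PLC cells, a ratio of 0.363 (0.286 to 0.406). ZNF829 across the 37 bases had 297 and 117, a ratio of 0.762 (0.595 to 0.924), so the head-to-head pair differed in this ratio with intervals that did not overlap.

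Genes of the short arm with a higher ratio in PLC cells came from clusters 3 and 4. ZNF443 had 229 and 335 reads, a ratio of 2.70 (2.33 to 3.28), with 1.09 in Huh7 cells. ZNF101, at the start of cluster 4, had 160 and 190 reads, a ratio of 2.103, with 1.31 in Huh7 cells. ZNF43 had a ratio of 1.79 and ZNF257 of 1.67, with 1.23 and 1.38 in Huh7 cells. All 4 had PLC intervals above 1, though ZNF443 and ZNF101 were named for high mean log2 ratios of these same libraries. The genes of the stretch silent in Huh7 cells did not share 1 direction in PLC cells, with ratios of 1.58 for ZNF730, 1.33 for ZNF492, 1.34 for ZNF98 and 0.933 for ZNF676, and the intervals of ZNF98 and ZNF676 included 1. ZNF91 had 1.07 in PLC and 1.13 in Huh7 cells.

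Few genes passed the ratio limits in both lines. Over 1.5 in both were 4 of 210 (1.90%), and under 0.67 in both were 3 (1.43%), where 3.87% and 2.5% of all 17928 genes with enough reads in both lines were. The 4 were ZNF887P, a pseudogene with 16, 86, 14 and 29 reads, ZNF823 with 130, 308, 524 and 434, ZNF878 with 9, 48, 28 and 25 and ZNF837 with 37, 152, 21 and 29. The interval of ZNF878 in PLC cells, 0.942 to 2.997, included 1. The 3 were ZNF333 with 237, 150, 374 and 124 reads, ZNF404 with 34, 28, 74 and 20 and ZNF419 with 231, 192, 432 and 130. ZNF625 was past the limits in opposite directions, 0.461 in Huh7 and 1.64 in PLC cells, on 10 to 24 reads a library. ZNF887P, ZNF823 and ZNF878 lie in cluster 3, and ZNF837 in cluster 10. Across the 210 genes Pearson's r of the log2 ratios of the lines was 0.22, and over all genes it was 0.25. This is across genes, which are not independent replicates, and the libraries of a line are shared by all points.

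Some zinc finger genes of chromosome 19 carry other names, and 20 of a list of 22 were rows of this chromosome. Of the 14 tested, 5 passed as higher in PLC cells and 1 as lower, and 0 passed the edgeR glucose test, with 2 lower and 0 higher at an unadjusted p under 0.05. Over all 23217 genes tested, 21.1% passed as higher and 21.8% as lower in PLC cells. For glucose 0.379% of them passed, with 4.36% lower and 4.14% higher at the unadjusted threshold. ZFP28, in the interval of cluster 10, had 36, 23, 488 and 106 reads and ZFP30, in the interval of cluster 6, had 123, 214, 1230 and 476. Both were higher in PLC cells (log2 differences 3.19 and 2.44). ZFP14 and ZFP82, also in the interval of cluster 6, did not pass the edgeR test of the lines. Their log2 differences were -0.11 and 0.34 (adjusted p = 0.82 and 0.37). The ratio of high to low glucose had a median log2 of -0.32 over the 14 expressed in PLC cells, where that of the ZNF genes was -0.37. The 14 were spread widely, with quartiles of -0.78 and 0.25, and 5 had a ratio above 1 and 9 below. ZIM3, ZIM2, ZSCAN1, ZSCAN4 and KLF1 had 0 reads in all libraries.

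The partners of KRAB zinc finger proteins were expressed in both lines, 23 of 23. TRIM28, the corepressor they bind, had 9179, 14930, 10612 and 4871 reads, and its log2 difference of PLC from Huh7 cells was -0.50 (edgeR adjusted p = 0.070). SETDB1, which writes H3K9me3, had 1017, 1186, 738 and 416 reads and was lower in PLC cells (-0.78, adjusted p = 0.024). TASOR and MPHOSPH8, 2 subunits of the HUSH complex, were higher in PLC cells (1.30 and 1.56), and 7 of the 23 were lower in all, DNMT3A with 1651, 2292, 406 and 319 reads among them. Over all genes tested, 21.1% passed as higher and 21.8% as lower. For glucose 0 of 23 passed, with 3 higher and 0 lower at an unadjusted p under 0.05. Over all genes tested by edgeR these shares were 0.379%, 4.14% and 4.36%. UHRF1, which guides maintenance DNA methylation, had 1071, 2954, 860 and 1242 reads, with ratios of 1.95 in Huh7 and 2.69 in PLC cells. DNMT3B had 347, 1028, 308 and 367, with 2.07 and 2.19. The median log2 ratio of the list was 0.18 in Huh7 and 0.32 in PLC cells, where that of the ZNF genes was 0.02 and -0.37. Whether any of these moved the ZNF genes was not tested.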

How the data were processed

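RNA was sequenced in 4 libraries, 1 for each cell line and glucose level. The authors deposited raw counts, whole numbers of reads per gene with no normalization. Per the processing notes, reads were aligned to hg38 with HISAT2 and counted with featureCounts. The versions, the annotation release, the use of strand and the treatment of reads that match several genes are not given in the sources used here. ZNF genes are close paralogs, and exons of 148 of the 263 overlapped another gene of the table, so reads could be lost or shared among relatives. Of 59657 lines, 5 of a broken ANK2 entry were left out. CPM and FPKM were computed from library totals and the table's gene lengths.

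edgeR 4.0.16 (quasi-likelihood, TMM, filterByExpr, Benjamini-Hochberg over 23217 genes) fitted line and glucose on the whole table. DESeq2 1.42.0 was an alternative. Intervals are exact Clopper-Pearson (scipy 1.17.1). Tests were checked on simulated data. The genes and lists, the clusters' limits and the thresholds were chosen with earlier results of these data known. Named are the genes with known roles, the 8 with the highest FPKM, those expressed in 1 line and silent in the other (up to 12 a direction), the 8 with the largest line difference in each direction, the 5 with the highest and the 5 with the lowest mean log2 ratio, and the listed genes. Others, named to mark positions or small counts, were chosen after their values were seen.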

Additional observations from a re-analysis of the deposited data

Results flagged for a closer look

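ZNF304 is flagged because the lines moved in opposite directions, with a ratio of high to low glucose of 1.31 in Huh7 and 0.564 in PLC cells and counting intervals of 1.12 to 1.58 and 0.477 to 0.646. It was 1 of 26 such genes among the 210 expressed in both lines, 21 of them (10.0%) above 1 in Huh7 and below 1 in PLC cells and 5 (2.38%) the reverse. Over all 17928 genes with enough reads in both lines these shares were 5.28% and 5.44%, and 10.7% in all against 12.4% of the ZNF genes. The median log2 ratios of clusters 7, 8, 9 and 10 are flagged for the same reason. In Huh7 cells they were 0.023, 0.10, 0.043 and 0.046, and in PLC cells -0.39, -0.57, -0.43 and -0.67. The differences between the lines were not tested, since each condition has 1 library. With TMM scaling the Huh7 medians of these clusters were -0.01, 0.06, 0.00 and 0.01.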

How the results depend on the processing

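No leaving out of replicates was possible with 1 library a condition. The labels carry no replicate numbers, so no pairing other than by cell line was possible. The glucose test has the cell line as a term and so compared high with low glucose within each line. The count of ZNF genes with an adjusted p under 0.05 for glucose was 0 in edgeR and stayed 0 with RLE size factors, a mean of at least 10 counts, DESeq2 and no line term. It was 2 with no filter on low counts (ZNF460 and ZNF550, both lower). The count for the lines was 102, and 72 to 105 in the alternatives, and 69 of the 102 were called in every one of them.

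In Huh7 cells the 7 genes over 1.5 became 14 without pseudocount and 3 with a pseudocount of 1, and the 13 under 0.67 became 6 with at least 100 reads and 2 with a pseudocount of 1. In PLC cells a pseudocount of 1 left 7 over 1.5 and 43 under 0.67. Over 1.5 in both lines were 2 with TMM scaling, 1 with at least 100 reads and 1 with a pseudocount of 1. Under 0.67 in both were 5 without pseudocount and 0 with a pseudocount of 1. The median log2 ratio in PLC cells was -0.49 with TMM scaling and -0.22 with a pseudocount of 1, and on the long arm -0.66 and -0.36. With the trend of GC content and length removed the PLC median of all the ZNF genes was -0.40 and that of the long arm -0.62. For genes whose exons overlap no other they were -0.32 and -0.52. The cause of these changes was not tested. The Huh7 medians of all the ZNF genes, of the short arm and of the long arm lay within 0.1 of 0 in all settings. Those of all the ZNF genes and of the long arm changed sign with TMM scaling and with the GC and length trend removed, and the long arm's also over genes whose exons overlap no other. The GC, length and overlap settings, and the medians, were added after the data were seen. A gap of 0.5 Mb gave 11 clusters in place of 10. The 220 and 230 genes expressed in Huh7 and PLC cells became 198 and 199 with FPKM over 0.5 in at least 1 library. They became 204 and 206 with at least 20 reads in each library. With CPM under 0.1 in each library as the rule, 35 genes were silent in Huh7 and 11 in PLC cells.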
